A study of Mus musculus with 4 samples.

Results

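The Nr4a orphan nuclear receptors are Nr4a1, Nr4a2 and Nr4a3, found by their symbols as 3 of the 32285 genes counted. They were followed in nuclei from the hippocampus of wild-type mice (WT) and of mice heterozygous for the Cyfip2 Arg87Cys knock-in (Cyfip2+/R87C, KI), a model of the infantile epilepsy West syndrome, with 2 libraries per genotype. The mice were adults on the C57BL/6N background, hippocampi of both hemispheres were frozen under the same schedule, no drug is named, and all libraries carry the same batch label. Nothing says whether a library pools mice, so p-values measure the spread between these libraries. The knock-in is in the germline, and Cyfip2 belongs to the complex that controls branched actin. The label of KI replicate 2 gives the allele as R88C in one field and R87C in another, and it was kept with KI by its genotype. A single-codon change cannot be read from counts of 3' ends, so the counts do not check the genotype labels. Sex was not given per library.

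Nr4a1 (Nur77), Nr4a2 (Nurr1) and Nr4a3 (Nor1) are nuclear receptors for which no classical hormone is known, so that the amount of protein made largely sets their activity. In neurons they are immediate early genes: calcium entry during firing activates CREB, MEF2 and SRF, and their transcription follows within minutes. They bind DNA alone or, for Nr4a1 and Nr4a2, together with a retinoid X receptor. In the hippocampus the family is known for its part in the consolidation of memory, and Nr4a2 is best known as a factor that dopamine neurons need.

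All 3 genes are protein-coding, and no other gene of GENCODE M21 on GRCm38, the build of the files, overlapped them. Nr4a1 (ENSMUSG00000023034) lies on chromosome 15 from 101254269 to 101274795 on the plus strand. Nr4a2 (ENSMUSG00000026826) lies on chromosome 2 from 57106830 to 57124003 on the minus strand. Nr4a3 (ENSMUSG00000028341) lies on chromosome 4 from 48045153 to 48086447 on the plus strand. The bases before their start sites are shown because CREB, the factor through which calcium reaches these genes, binds the cAMP response element (CRE), whose short form is TGACG on one strand and CGTCA on the other. The sequences are from RefSeq (GRCm38.p6), 5′ to 3′ on the strand of the gene, with both short forms in capitals. The first stretch lies at chr15:101266596-101266845, before a start site inside the longest Nr4a1 transcripts. The second lies at chr2:57124004-57124253. The third lies at chr4:48045055-48045152, ending where the annotated first exon of Nr4a3 begins.
Nr4a1: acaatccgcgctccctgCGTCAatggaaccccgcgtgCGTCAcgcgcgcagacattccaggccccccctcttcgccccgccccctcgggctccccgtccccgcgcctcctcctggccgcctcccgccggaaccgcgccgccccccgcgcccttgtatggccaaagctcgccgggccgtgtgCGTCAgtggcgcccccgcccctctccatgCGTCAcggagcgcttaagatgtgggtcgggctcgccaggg
Nr4a2: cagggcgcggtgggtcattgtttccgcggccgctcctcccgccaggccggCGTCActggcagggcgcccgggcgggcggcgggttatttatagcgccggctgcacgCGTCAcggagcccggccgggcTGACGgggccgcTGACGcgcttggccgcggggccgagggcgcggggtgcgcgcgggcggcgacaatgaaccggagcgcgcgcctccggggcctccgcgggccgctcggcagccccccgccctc
Nr4a3: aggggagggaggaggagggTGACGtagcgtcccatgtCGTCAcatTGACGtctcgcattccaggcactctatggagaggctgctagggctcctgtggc

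In the 250 bases before the RefSeq start each gene held 4 short CRE motifs, and 0.137% of 32851 mouse promoters of that length held as many. The motif of Nr4a3 nearest to that start, 147 to 143 bases before it, lies inside the annotated gene and is not in the stretch printed above. Among promoters with a GC content within 5 percentage points, the share with as many was 0.289% for Nr4a1, 0.323% for Nr4a2 and 0.364% for Nr4a3. One or more short motifs stood in 17.8% of all promoters. The full CRE (TGACGTCA) was in none of the 3, against 1.55% of all promoters. The element that Nr4a proteins themselves bind, the NBRE (AAAGGTCA on either strand), was in none of the 3 either, against 1.34% of all promoters. Of the other motifs searched, the CArG box of SRF was in none of the 3 (1.47% of all promoters) and 1 MEF2 site stood before Nr4a2 (2.92% of all promoters). These are matches of letters, and binding was not measured.

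**Figure D1:**
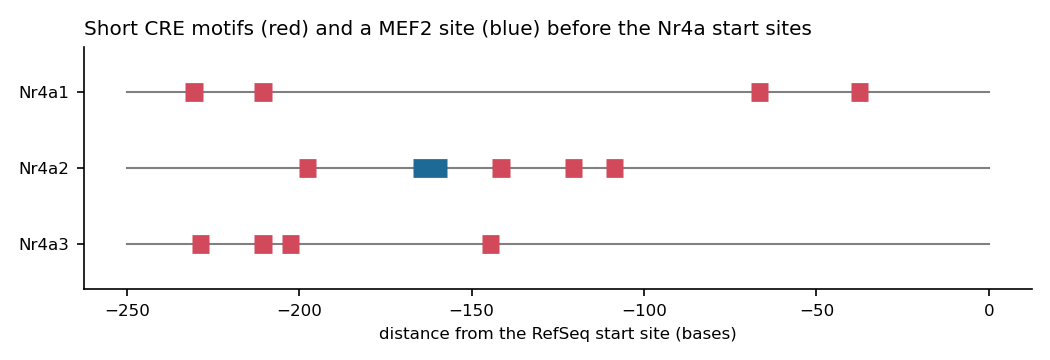
Positions of short CRE motifs (TGACG or CGTCA, red) and of a MEF2 site (blue) in the 250 bases before the RefSeq start site of each gene, with distance from the start in bases on the x axis. Each gene has 4 red marks, and only Nr4a2 has a blue one.

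The libraries held 73009975 to 80913580 UMIs (unique molecular identifiers, each standing for 1 captured transcript). After filters on genes, mitochondrial share and doublets, 52033 nuclei remained, with a median of 3868 and 4497 UMIs per nucleus in WT replicates 1 and 2 and of 4617 and 4698.5 in KI replicates 1 and 2. Clusters were made without the Nr4a genes and without other activity genes, and 16 of 29 clusters, with 40056 nuclei, received the names of 13 cell classes from marker genes. The names stand for resemblance to those markers and were rebuilt here, so they can differ from those of the study. All 7 markers were raised in the cluster of dentate gyrus (DG) granule neurons, 6 of 7 in that of CA1 pyramidal neurons, 7 of 7 in CA3 and 7 of 8 in that of subicular or retrohippocampal excitatory neurons. At a finer resolution the CA3 class split off a cluster with 4 of 7 mossy cell markers and 5 of 7 CA3 markers raised. Malat1, a nuclear RNA, took 8.90% and 8.71% of the UMIs in WT and 13.7% and 12.2% in KI, and its part in the results below was not tested.

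In WT the order of classes was not the same for the 3 receptors. Nr4a1 and Nr4a2 were highest in subicular or retrohippocampal neurons and then in CA1, while Nr4a3 was highest in CA3 and then in CA1. Granule neurons of the DG were in place 12 of 13 for Nr4a1 and Nr4a3 and in place 10 for Nr4a2. Levels are CPM, the UMIs of the gene for each 1000000 UMIs of that class in a library.

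Nr4a1 stood at 67.1 and 53.0 CPM in subicular or retrohippocampal neurons of WT replicates 1 and 2, 44.1 and 41.9 in CA1, 25.3 and 23.6 in CA3, 18.2 and 20.9 in inhibitory neurons and 5.64 and 5.93 in DG. The WT libraries of these 5 classes did not overlap from 1 class to the next. Fitted over all 4 libraries, KI included, with the library as a block, subicular or retrohippocampal neurons differed from CA1 (adjusted p = 0.000446), and CA1 from oligodendrocyte precursors, which came next at 26.1 ± 4.02 CPM (SD, n = 2; adjusted p = 0.000112). No neighbours tested further down the order of 13 classes differed, with adjusted p from 0.0597 to 0.884. Against DG itself, Nr4a1 was higher in 8 of 12 other classes. Of all genes tested, 20.8% were higher than in DG in CA1, 24.4% in CA3, 22.1% in subicular or retrohippocampal neurons, 26% in inhibitory neurons and 7.23% in Cajal-Retzius cells. Outside the neurons it was 30% in oligodendrocytes, 19.7% in their precursors, 8.15% in committed precursors, 26.1% in astrocytes, 19% in microglia, 20.3% in fibroblasts and 5.45% in mural cells. The difference from DG was 3.30 on the log2 scale (SE 0.14) for subicular or retrohippocampal neurons, 2.57 (SE 0.22) for CA1, 1.74 (SE 0.23) for CA3 and 1.22 (SE 0.23) for inhibitory neurons.

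Nr4a2 stood at 78.4 and 75.6 CPM in subicular or retrohippocampal neurons of WT, 36.7 and 44.0 in CA1, 19.8 and 24.0 in CA3, 13.8 and 14.6 in DG and 6.15 and 10.8 in inhibitory neurons. Among the neighbours tested the step from subicular or retrohippocampal neurons to CA1 passed (adjusted p = 0.000134) and no other did, the others having adjusted p from 0.0590 to 0.991. Nr4a2 was higher than in DG in 2 of 12 classes, subicular or retrohippocampal neurons (log2 difference 2.47, SE 0.17) and fibroblasts (1.0, SE 0.26), and lower in 1, inhibitory neurons (-1.25, SE 0.24), where 26% of genes were lower than in DG. For CA1 the log2 difference from DG of 0.88 (SE 0.39) did not pass (adjusted p = 0.119).

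Nr4a3 stood at 64.0 and 71.4 CPM in CA3 of WT, 49.1 and 51.5 in CA1, 26.4 and 29.2 in subicular or retrohippocampal neurons, 8.11 and 14.0 in inhibitory neurons and 12.2 and 7.84 in DG. CA3 differed from CA1 (adjusted p = 0.00603) and CA1 from subicular or retrohippocampal neurons (adjusted p = 7.53e-05), and no neighbours tested below them differed (adjusted p from 0.139 to 0.933). KI enters these fits, and there CA3 and CA1 lay further apart than in WT, with 33.8 and 30.3 CPM in CA3 and 9.69 and 8.86 in CA1. Nr4a3 was higher than in DG in 3 of 12 classes, namely CA3 (log2 difference 3.08, SE 0.17), CA1 (2.16, SE 0.21) and subicular or retrohippocampal neurons (1.44, SE 0.20). At the finer resolution the cluster with mossy cell and CA3 markers had 56.7 and 80.1 CPM in WT beside 66.0 and 69.0 in the CA3 cluster.

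**Figure D2:**
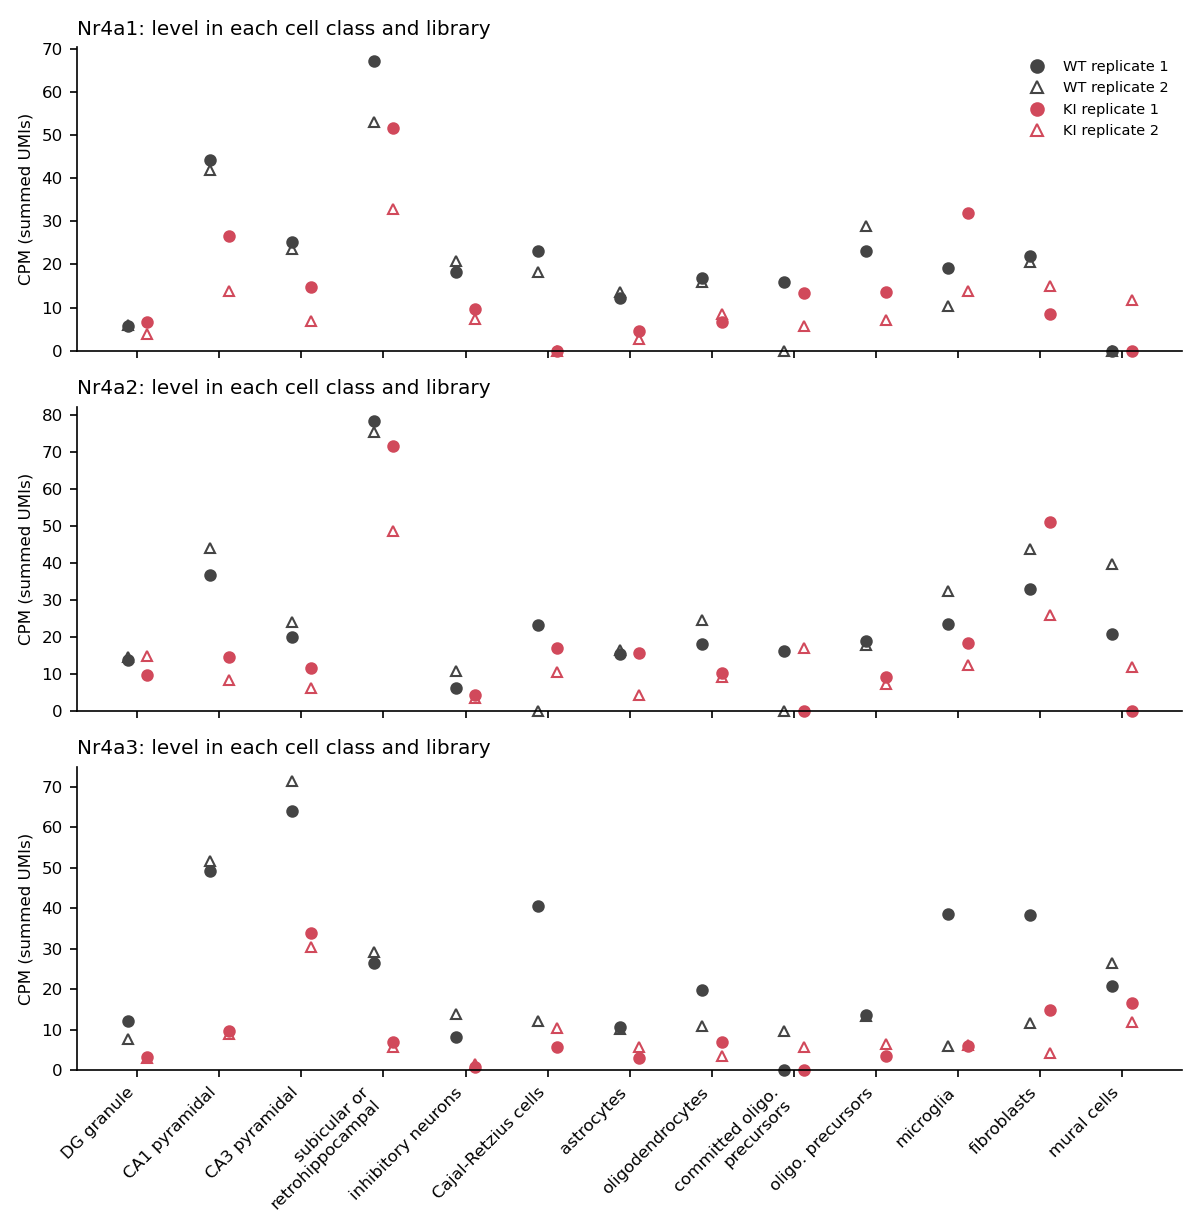
Level of each gene in CPM (y axis) in 13 cell classes (x axis) of the 4 libraries, dark for WT and red for KI, circles for replicate 1 and triangles for replicate 2. Nr4a1 and Nr4a2 peak in subicular or retrohippocampal neurons and Nr4a3 in CA3, where the KI points at 33.8 and 30.3 CPM lie below the WT points at 64.0 and 71.4.

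Transcripts of these genes were found in a minority of nuclei. In CA1 of WT, 18.6% and 19.8% of nuclei had a UMI of Nr4a1, 14.9% and 19.0% of Nr4a2 and 16.5% and 19.5% of Nr4a3. In CA3 the shares for Nr4a3 were 29.4% (95% exact interval 26.9 to 31.9) and 32.2% (29.1 to 35.4). In subicular or retrohippocampal neurons they were 34.9% and 35.2% for Nr4a2. Exact intervals were up to 3.80 percentage points wide in CA1, 6.26 in CA3, 10.8 in subicular or retrohippocampal neurons and 2.01 in DG, and cover counting error only.

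Free RNA gives UMIs of a gene to nuclei that do not express it, its part in these shares was not tested, and no class here is known to lack all 3 receptors. Oligodendrocytes, which are not known for high levels of them, had a UMI of Nr4a1 in 2.46% and 2.61% of WT nuclei at a median of 1410 and 1483.5 UMIs. The DG granule neurons had 2.08% and 2.46% at a median of 3727.5 and 4162 UMIs. Brought to 1000 UMIs per nucleus, the shares for Nr4a1 were 1.71% and 1.62% in oligodendrocytes and 0.611% and 0.556% in DG. The DG shares were below those of oligodendrocytes for Nr4a3 too (1.03% and 0.699% against 2.06% and 1.12%) and for Nr4a2 (1.33% and 1.47% against 1.64% and 2.62%). In CA1 the thinned WT shares were 4.34% and 4.19% for Nr4a1, 3.55% and 4.27% for Nr4a2 and 4.33% and 4.56% for Nr4a3, all above those of oligodendrocytes. In inhibitory neurons Nr4a1 was at 1.87% and 2.08% of WT nuclei, near the oligodendrocytes, and the CPM of these classes did not pass as different (adjusted p = 0.0597). Thinning left out 391, 157, 289 and 164 oligodendrocytes of WT replicates 1 and 2 and KI replicates 1 and 2, and at most 16 nuclei of DG, 4 of CA1 and 2 of CA3 per library.

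Some granule neurons of DG held many UMIs of Nr4a3 in WT. In DG of WT, 9 and 6 nuclei had 3 or more, and the highest nucleus had 17 in WT replicate 1 and 12 in WT replicate 2. The 43 and 33 WT nuclei that make up the top 1% held 47.0% and 56.3% of the Nr4a3 UMIs of that class. In KI the 25 and 23 top nuclei held 69.2% and 86.7%, so this share does not by itself show an uneven spread. For Nr4a1, 4 and 2 WT nuclei had 3 or more. In DG of KI no nucleus had more than 2 of Nr4a3.

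**Figure D3:**
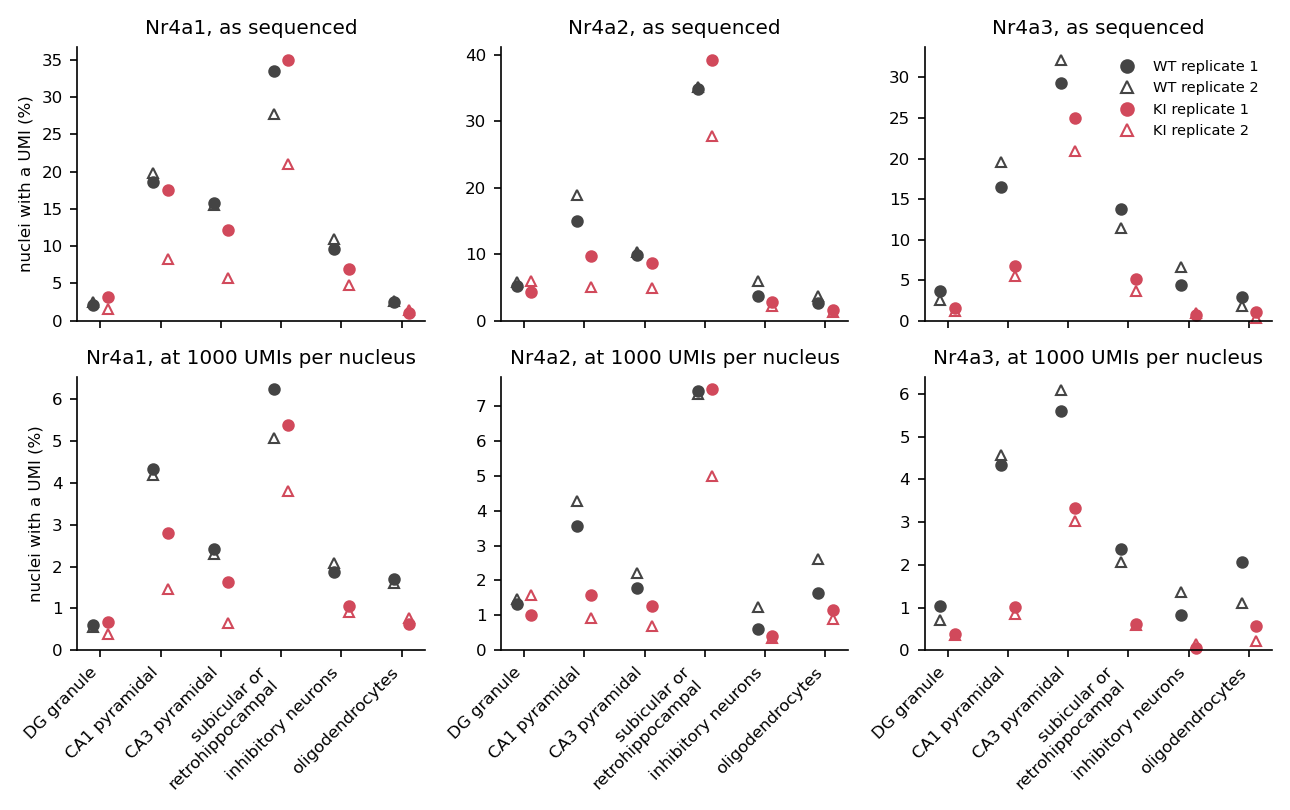
Share of nuclei with at least 1 UMI (y axis, %) in 6 classes of the 4 libraries, as sequenced (top) and with every nucleus brought to 1000 UMIs (bottom). At equal depth the DG points lie at or below those of oligodendrocytes in WT for all 3 genes, while CA1, CA3 and subicular or retrohippocampal neurons stand above those of the same WT library for Nr4a3.

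KI was compared with WT to ask how the Cyfip2 mutation changes each receptor, with libraries as replicates. Nr4a3 was lower in KI in all 5 large neuronal classes, Nr4a2 in CA1 and Nr4a1 in inhibitory neurons. All falls below are log2 fold changes of KI over WT, with adjusted p over all genes of the class. Fewer expressing nuclei and fewer transcripts per nucleus are not told apart by these sums, and the shares of nuclei are given beside them.

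Nr4a3 fell most clearly in CA1. It stood at 49.1 and 51.5 CPM in WT, beside 9.69 and 8.86 in KI, so the genotypes did not overlap and lay about 5.09-fold apart (log2 fold change -2.35, SE 0.14, adjusted p = 0.00203). In CA1, 2.62% of 16308 genes were lower in KI by the same threshold, and 36.9% had both KI libraries below both WT libraries. The share of CA1 nuclei with an Nr4a3 UMI went from 16.5% (15.1 to 18.1) and 19.5% (17.7 to 21.5) to 6.73% (5.58 to 8.02) and 5.49% (4.49 to 6.64), and at 1000 UMIs from 4.33% and 4.56% to 1.01% and 0.842%. The median depth of CA1 nuclei overlapped between genotypes, at 5017 and 5964.5 UMIs in WT and 7099 and 5737 in KI.

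In CA3, the class with the most Nr4a3, it went from 64.0 and 71.4 CPM in WT down to 33.8 and 30.3 in KI (log2 fold change -0.99, SE 0.14, adjusted p = 0.0201; 0.794% of genes lower in KI). Both KI libraries lay below both WT libraries (34.6% of genes did), and the shares of nuclei went from 29.4% and 32.2% to 24.9% and 20.9%. Without WT replicate 2 this fall no longer passed (-0.93, adjusted p = 0.0637). KI CA3 nuclei still had a higher Nr4a3 level than any other named class of KI, at 32.0 ± 2.45 CPM (SD, n = 2).

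In subicular or retrohippocampal neurons, Nr4a3 went from 26.4 and 29.2 CPM to 7.04 and 5.86 CPM (log2 fold change -2.02, SE 0.26, adjusted p = 0.00599; 0.813% of genes lower in KI). The fold changed little without WT replicate 1 (-2.09) or WT replicate 2 (-1.97), but neither passed (adjusted p = 0.860 and 0.804). It did not pass either without the filter on low counts (-2.04, adjusted p = 0.361) or with nuclei gated by their own markers, unscaled (-1.54, adjusted p = 0.318) or scaled (-1.49, adjusted p = 0.128), and it passed in the other 11 of 16 alternatives. Inhibitory neurons went from 8.11 and 14.0 CPM to 0.795 and 1.65 CPM, from 33 and 61 UMIs to 4 and 10 (log2 fold change -3.01, SE 0.44, adjusted p = 0.0121; 0.894% of genes lower in KI). These counts are small, and the WT shares of inhibitory nuclei at 1000 UMIs, 0.825% and 1.37%, were at or below those of oligodendrocytes in 1 of the 2 WT libraries. DG granule neurons went from 12.2 and 7.84 CPM to 3.27 and 3.11 CPM (log2 fold change -1.52, SE 0.29, adjusted p = 0.0275; 4.9% of genes lower in KI). Without WT replicate 1 the fall in DG did not pass (-1.16, adjusted p = 0.231).

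Nr4a3 thus passed as lower in 5 of the 8 named classes in which it had enough counts, and as higher in none. Over all nuclei it stood at 29.9 and 29.8 CPM in WT, beside 9.99 and 8.23 in KI (log2 fold change -1.66, SE 0.15, adjusted p = 0.0368), where 0.382% of 21718 genes were lower. With every library given the same mix of classes, an alternative added after seeing the data, this value was -1.62 (adjusted p = 0.0286).

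At 2 times the resolution CA1 had 1804 and 1231 WT nuclei against 751 and 1037 of KI, and an unnamed cluster with 4 of 7 CA1 markers raised had 791 and 681 of WT against 1131 and 941 of KI. Nr4a3 stood at 52.9 and 57.2 CPM in WT, beside 11.4 and 10.4 in KI, in the former. In the latter it stood at 37.8 and 37.5 CPM in WT, beside 8.92 and 8.75 in KI. How many genes had both KI libraries below both WT libraries was not counted in these clusters. Nr4a2 stood at 37.2 and 47.1 CPM in WT, beside 16.9 and 9.63 in KI, in the former and at 35.6 and 38.5 CPM in WT, beside 14.5 and 8.09 in KI, in the latter.

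**Figure D4:**
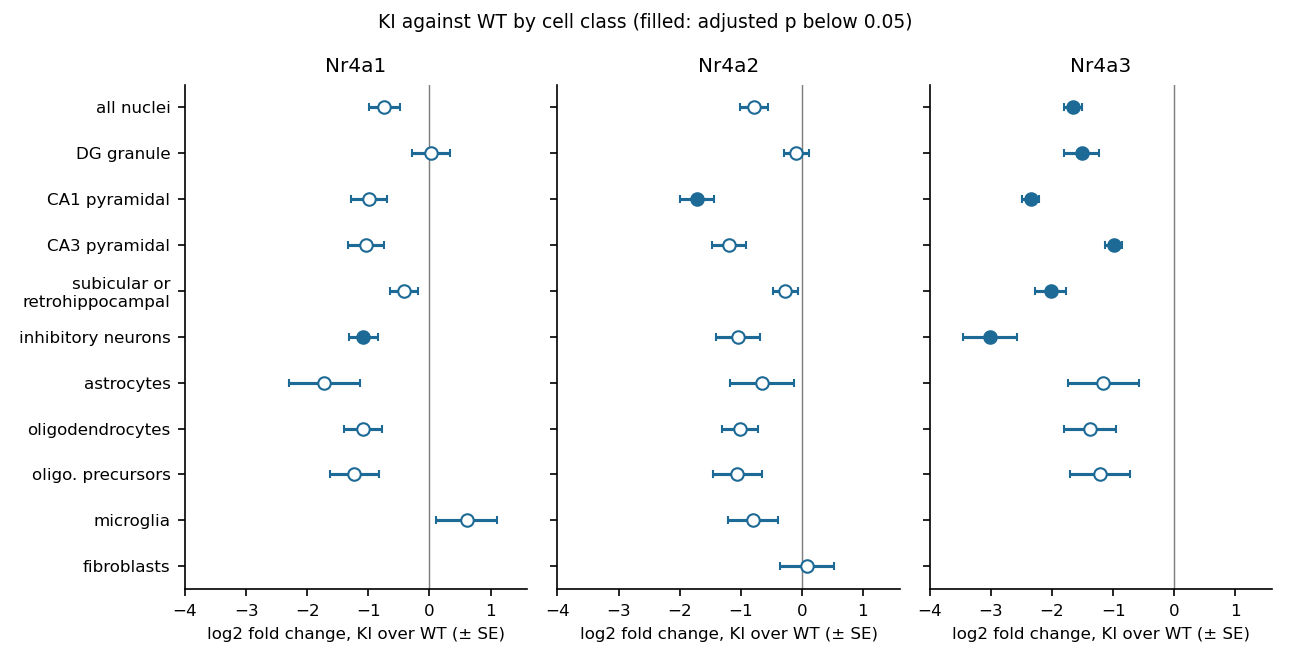
Log2 fold change of KI over WT (x axis, with SE) for each gene over all nuclei and in each class in which it was tested, filled where the adjusted p is below 0.05. Nr4a3 is filled over all nuclei and in 5 classes, Nr4a2 in CA1 and Nr4a1 in inhibitory neurons.

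Nr4a2 fell in CA1, from 36.7 and 44.0 CPM in WT down to 14.6 and 8.199 in KI (log2 fold change -1.72, SE 0.28, adjusted p = 0.0214; 2.62% of genes lower in KI). Both KI libraries lay below both WT libraries, as they did for 36.9% of genes there. The shares of CA1 nuclei with a UMI were 14.9% and 19.0% in WT and 9.73% and 4.997% in KI. In CA3 it went from 19.8 and 24.0 to 11.4 and 6.19 CPM, which did not pass (log2 fold change -1.19, SE 0.27, adjusted p = 0.0697). In subicular or retrohippocampal neurons, where Nr4a2 was highest in WT among the 13 named classes, it stood at 78.4 and 75.6 CPM in WT, beside 71.7 and 48.8 in KI (log2 fold change -0.27, SE 0.20, adjusted p = 0.526). In DG the values were 13.8 and 14.6 CPM in WT, beside 9.74 and 14.8 in KI, which overlapped (log2 fold change -0.09, SE 0.21, adjusted p = 0.799). Inhibitory neurons had 6.15 and 10.8 CPM in WT, beside 4.18 and 3.46 in KI (log2 fold change -1.05, SE 0.36, adjusted p = 0.146). Over all nuclei the log2 fold change of Nr4a2 was -0.79 (SE 0.23, adjusted p = 0.130). Some of these values turned on 1 KI library. In CA3 Nr4a2 was at -1.76 without KI replicate 1 and at -0.82 without KI replicate 2. It was at -1.21 in inhibitory neurons without KI replicate 1 and at -0.37 in DG without KI replicate 2. Subicular or retrohippocampal neurons gave -0.63 without KI replicate 1 and 0.02 without KI replicate 2. In these fits the lone KI library is assumed to vary like the WT libraries. In CA3, inhibitory neurons and DG they called many more genes than the main fits, so no call is read from them.

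Nr4a1 passed in inhibitory neurons alone among the 9 named classes in which it was tested. The unnamed cluster 13, with 6 of 10 inhibitory markers raised, did not show it. Nr4a1 there stood at 21.1 ± 3.21 CPM in WT and 18.3 ± 10.8 in KI (SD, n = 2; log2 fold change -0.13, SE 0.34, adjusted p = 0.921). In the named inhibitory neurons it went from 18.2 and 20.9 CPM in WT down to 9.74 and 7.42 in KI (log2 fold change -1.08, SE 0.24, adjusted p = 0.0454), with 9.63% and 10.96% of WT nuclei and 6.99% and 4.78% of KI nuclei holding a UMI. Without WT replicate 1 or WT replicate 2 it no longer passed (-1.16 and -1.01, adjusted p = 0.1999 and 0.219). It was also lost with DESeq2 (-1.07, adjusted p = 0.107), at 2 times the resolution (-1.09, adjusted p = 0.0549) and with nuclei gated by their own markers, unscaled (-0.68) or scaled (-0.59), which makes 6 of 16 alternatives. In CA1 the values were 44.1 and 41.9 CPM in WT, beside 26.5 and 13.7 in KI (log2 fold change -0.99, SE 0.30, adjusted p = 0.0924). The KI libraries lay far apart, and with either one left out the value passed, at -1.61 without KI replicate 1 and -0.57 without KI replicate 2. CA3 had 25.3 and 23.6 CPM in WT, beside 14.9 and 6.98 in KI (log2 fold change -1.04, SE 0.30, adjusted p = 0.111), again with KI replicate 2 lower, and it passed at -1.76 without KI replicate 1 and at -0.61 without KI replicate 2. Subicular or retrohippocampal neurons had 67.1 and 53.0 CPM in WT, beside 51.8 and 32.9 in KI (log2 fold change -0.42, SE 0.23, adjusted p = 0.386), and without KI replicate 1 the value was -0.84. DG had 5.64 and 5.93 CPM in WT, beside 6.72 and 3.83 in KI, on both sides of WT (log2 fold change 0.03, SE 0.31, adjusted p = 0.967). Over all nuclei the log2 fold change of Nr4a1 was -0.74 (SE 0.25, adjusted p = 0.163), which passed without KI replicate 1 (-1.18) or KI replicate 2 (-0.42).

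The DG class, like the oligodendrocytes, set nuclei of different clusters against each other. At 2 times the resolution one of its clusters held 3797 and 2837 WT nuclei against 177 and 660 of KI. Another, led by Mylk3, held 161 and 160 of WT against 2219 and 1421 of KI. In the former, Nr4a2 stood at 13.4 and 12.6 CPM in WT, beside 3.73 and 7.54 in KI, from 3 and 21 UMIs in KI. In the cluster led by Mylk3 it stood at 29.1 and 41.8 CPM in WT, beside 10.3 and 18.2 in KI. Both KI libraries were thus below both WT libraries in each cluster, while in the whole class they overlapped. The share of all genes that did so was not counted in these clusters, and it was 36.9% in CA1 and 34.6% in CA3. Nr4a1 stood at 4.23 and 4.74 CPM in WT, beside 4.97 and 3.59 in KI, in the former cluster. In the cluster led by Mylk3 it stood at 36.1 and 22.9 CPM in WT, from 26 and 17 UMIs, beside 6.93 and 3.91 in KI. Nr4a3 stood at 10.1 and 6.10 CPM in WT, beside 0 and 1.79 in KI, in the former and at 70.7 and 43.2 CPM in WT, beside 3.42 and 3.91 in KI, in the latter. The Nr4a genes and the other activity genes took no part in the clustering, and no test was made within these clusters.

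None of the receptors tested passed in oligodendrocytes, oligodendrocyte precursors, astrocytes, microglia or fibroblasts. Nr4a3 in microglia and Nr4a1 and Nr4a3 in fibroblasts had too few counts and were not tested. Of 12 tests of a receptor in these 5 classes, 7 had an unadjusted p below 0.05 by edgeR and 3 by DESeq2, which passed none and gave no adjusted p for 4. Among all genes 0.873% passed the adjusted threshold in oligodendrocytes, 0.0277% in their precursors, 0.139% in astrocytes, 0% in microglia and 0.0118% in fibroblasts. The share of all genes with an unadjusted p below 0.05 is not given for these classes, so the counts at that threshold have no background here. In oligodendrocytes, the myelin-forming cells, Nr4a1 had 16.8 and 16.0 CPM in WT, beside 6.72 and 8.41 in KI (log2 fold change -1.09, adjusted p = 0.1496), Nr4a2 a log2 fold change of -1.01 (adjusted p = 0.160) and Nr4a3 one of -1.37 (adjusted p = 0.182). With KI replicate 2 left out the 3 were at -1.19, -0.92 and -1.12. Without the filter on low counts all 3 passed, at -1.10, -1.03 and -1.39. Nr4a3 was at -2.17 without KI replicate 1. The class is made of clusters 3 and 4, which were divided by genotype. Cluster 3 held 2007 and 1222 WT nuclei against 49 and 252 of KI, and cluster 4 held 23 and 6 against 2058 and 607, so these values set nuclei of different clusters against each other. Whether free RNA takes part in these values was not tested, and the UMIs of Nr4a1, Nr4a2 and Nr4a3 in oligodendrocytes of WT replicate 1 were 53, 57 and 63 beside 1682, 1629 and 2080 in all its nuclei. In alternatives that kept all libraries, the receptors of precursors and astrocytes passed in 1 case, Nr4a3 in astrocytes with nuclei gated by their own markers (-1.38, adjusted p = 0.00197). Nr4a1 in precursors was at -1.69 without KI replicate 1. In astrocytes, Nr4a1 had 16 and 20 UMIs in WT and 3 and 2 in KI (log2 fold change -1.72, SE 0.58, adjusted p = 0.2499). In microglia, the immune cells of the brain, Nr4a1 had 19.3 and 10.3 CPM in WT, beside 32.0 and 13.8 in KI (log2 fold change 0.61, SE 0.50, adjusted p = 0.888), and the libraries overlapped. Nr4a2 in fibroblasts had 32.8 and 43.9 CPM in WT, beside 51.1 and 25.8 in KI (log2 fold change 0.08, SE 0.45, adjusted p = 0.994).

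Of the clusters without a name, 8 were tested as they stood, by a choice made after seeing the data. Receptors passed in clusters 5 and 6 and in none of clusters 10, 12, 13, 15 and 17, where the lowest adjusted p was 0.0603 for Nr4a3 in cluster 17 (log2 fold change -2.28) and 5 of 14 tests had an unadjusted p below 0.05 by edgeR, and in cluster 25 none had enough counts. Cluster 6, led by Rai14 and Sntb1 with 4 of 8 subicular or retrohippocampal markers raised, had Nr4a2 at 48.8 and 126 CPM in WT, beside 75.8 and 50.4 in KI, and the libraries overlapped. There Nr4a1 fell from 56.6 and 57.1 CPM to 17.1 and 13.9 CPM (log2 fold change -1.84, SE 0.22, adjusted p = 0.0310) and Nr4a3 from 41.7 and 33.4 CPM to 9.60 and 12.7 CPM (log2 fold change -1.66, SE 0.25, adjusted p = 0.0408), the latter not passing without KI replicate 1 (-1.52, adjusted p = 0.0654). In this cluster 0.143% of genes were lower in KI. WT replicate 1 gave 244 nuclei to this cluster and WT replicate 2 gave 662. In cluster 5, led by Adam33 and Hmcn1, Nr4a3 fell from 22.1 and 27.0 CPM to 9.22 and 9.03 CPM (log2 fold change -1.34, SE 0.24, adjusted p = 0.0376; 0.529% of genes lower in KI), which did not pass without WT replicate 1, WT replicate 2 or KI replicate 1 (-1.45, -1.16 and -1.38, adjusted p = 0.0875, 0.256 and 0.0686) or at equal depth (-1.63, adjusted p = 0.0646). Nr4a2 there had 33.1 and 28.0 CPM in WT, beside 12.8 and 6.74 in KI (log2 fold change -1.55, SE 0.32, adjusted p = 0.0508), and it passed in 6 of 12 alternatives, DESeq2 among them (adjusted p = 0.0120). Nr4a1 there had 23.4 and 20.7 CPM in WT, beside 13.0 and 9.25 in KI (log2 fold change -0.87, SE 0.27, adjusted p = 0.148), and passed in 2 of 12 alternatives.

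The difference between the effects themselves was tested as a class-by-genotype term against DG. The effect on Nr4a1 was more negative than in DG by 1.0 in CA1 (SE 0.18, adjusted p = 0.00334), where 6.07% of all genes had a more negative effect, by 1.09 in CA3 (SE 0.22, adjusted p = 0.00541; 5.59% of genes) and by 1.06 in inhibitory neurons (SE 0.27, adjusted p = 0.0226; 3.84% of genes), all on the log2 scale. In cluster 6 it was more negative by 1.79 (SE 0.27, adjusted p = 0.00173; 1.91% of genes). In cluster 13, with 6 of 10 inhibitory markers raised, the difference was -0.14 and did not pass (SE 0.33, adjusted p = 0.905). For Nr4a2 the effect was more negative by 1.61 in CA1 (SE 0.31, adjusted p = 0.00511) and by 1.07 in CA3 (SE 0.30, adjusted p = 0.0371). For Nr4a3 no class passed, with a difference of -0.81 in CA1 (SE 0.31, adjusted p = 0.117) and of 0.53 in CA3 (SE 0.29, adjusted p = 0.300). These terms set each class against granule neurons, where all 3 receptors had thinned WT shares below those of oligodendrocytes and where WT and KI nuclei lay mostly in different clusters at the finer resolution.

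In CA1 and CA3, both KI libraries had a smaller share of nuclei with 3 or more UMIs of each receptor than both WT libraries. This was not counted over all genes, of which 36.9% in CA1 and 34.6% in CA3 had both KI libraries below both WT libraries in CPM. In CA1, 64 and 56 WT nuclei held 3 or more UMIs of Nr4a3 against 4 and 0 KI nuclei, which is 2.62% and 3.22% of WT nuclei and 0.236% and 0% of KI nuclei, where 0 of 1821 nuclei allows a share of up to 0.165%, taken as 3 counts. For Nr4a2 the numbers were 33 and 40 in WT and 5 and 1 in KI, and for Nr4a1 32 and 29 in WT and 9 and 3 in KI. Nuclei with exactly 1 UMI of Nr4a1 numbered 343 of 2442 and 246 of 1740 in WT, 243 of 1695 in KI replicate 1 and 139 of 1821 in KI replicate 2. In CA3, 59 and 58 WT nuclei and 16 and 6 KI nuclei held 3 or more UMIs of Nr4a3, with up to 31 in 1 WT nucleus. In subicular or retrohippocampal neurons the shares with 3 or more UMIs of Nr4a2 overlapped, at 7.33% and 6.29% in WT and 7.25% and 0.743% in KI, and inhibitory neurons had at most 2 such nuclei per library for any receptor. These counts were not tested.

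**Figure D5:**
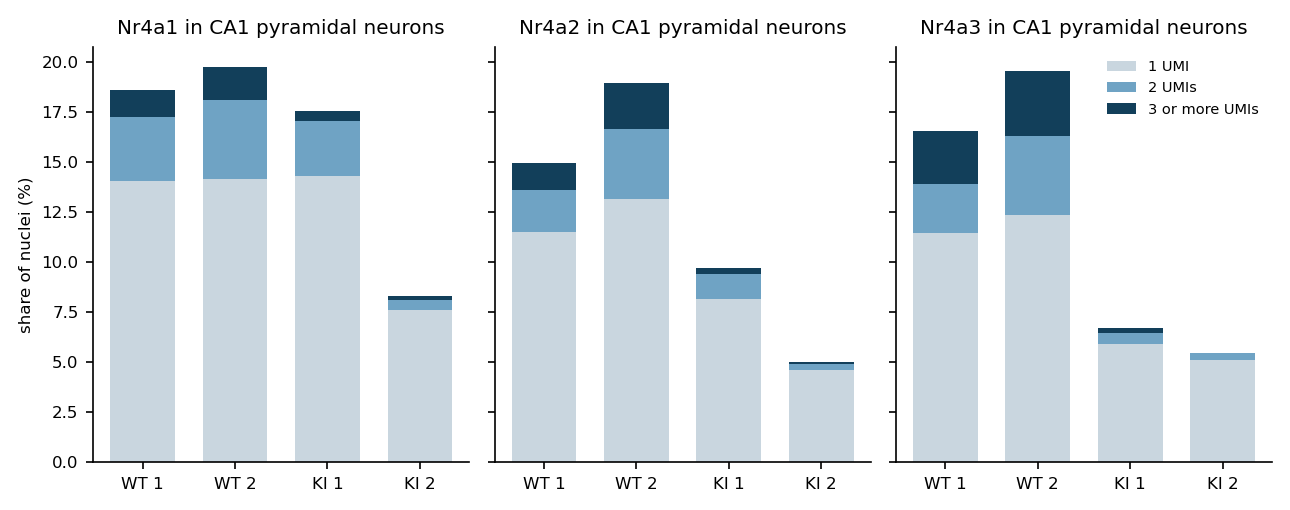
Share of CA1 nuclei (y axis, %) with 1, 2 and 3 or more UMIs of each gene, 1 stacked bar per library. The dark part for Nr4a3, nuclei with 3 or more UMIs, is 2.62% and 3.22% in WT and 0.236% and 0% in KI.

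In WT pyramidal neurons, nuclei with a transcript of 1 receptor more often held another than nuclei without it. Of CA1 nuclei with a UMI of Nr4a1, 33.7% and 41.9% in WT also had Nr4a3, against 12.6% and 14.0% of the nuclei without Nr4a1. In KI the figures were 11.4% and 8.61% against 5.73% and 5.21%. Nuclei with Nr4a1 were also deeper, with medians of 5862.5 and 6921 UMIs in WT against 4871.5 and 5716, and the part of depth in this was not tested. In WT CA3, 54.9% and 56.0% of nuclei with Nr4a2 had Nr4a3 against 26.6% and 29.4% of those without, while in KI it was 32.9% and 18.9% against 24.2% and 20.99%. In WT subicular or retrohippocampal neurons 65 of 151 and 60 of 119 nuclei with Nr4a1 also had Nr4a2 (43.0% and 50.4%), against 30.8% and 29.4% of those without. In KI of that class Nr4a3 was no more frequent with Nr4a1 than without it, at 4.31% and 3.53% against 5.58% and 3.76%.

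Other activity-induced transcription factors were read from a fixed list of 17 genes. In CA1, 12 had enough counts, 7 fell and none rose, with a median log2 fold change of -1.32 beside 0.00 for all genes, of which 6.92% passed. Fos, the partner of Jun in AP-1, went from 3.99 and 5.36 to 0.510 and 0.0828 CPM, the zinc finger factor Egr1 from 15.4 and 17.6 to 3.06 and 2.82 CPM and Npas4, a factor induced by calcium, from 8.91 and 14.4 to 4.37 and 2.73 CPM (adjusted p = 0.0165, 0.00444 and 0.0425), and these 3 were picked after their values were seen. Junb, of the Jun family, fell from 21.9 and 29.0 to 12.8 and 11.8 CPM. Its relatives Jun and Jund did not pass in CA1 (log2 fold change 0.07 and -0.02, adjusted p = 0.821 and 0.949). In DG, 13 were tested, of which Fos and Egr1 fell and Ier5 rose, with 9.7% of all genes passing. In CA3 Npas4 alone fell of 10 tested (2.25% of all genes passed), and in inhibitory neurons Npas4 and Fosl2 fell of 9 (2.46% of all genes). Over all nuclei none of 17 passed by edgeR, 10 had an unadjusted p below 0.05, and 0.889% of all genes passed, while DESeq2 called 7 lower. DESeq2 called none of this list in inhibitory neurons.

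The effectors that activity induces, 16 genes that act at synapses or feed back on signalling, did not all go the same way. Of all genes, 6.92% passed by edgeR in CA1, 9.7% in DG, 2.25% in CA3, 2.46% in inhibitory neurons and 0.889% over all nuclei, in either direction. In CA1, 5 fell and 1 rose (Rgs2, a brake on G protein signalling). Homer1, a scaffold of the synapse, fell from 361 and 334 to 139 and 135 CPM (log2 fold change -1.26), and Arc, which removes AMPA receptors from synapses, from 16.9 and 22.5 to 2.11 and 3.23 CPM (-2.80). In DG, 5 rose and 3 fell. Bdnf, a growth factor, rose there from 59.9 and 56.6 to 152 and 170 CPM (log2 fold change 1.601) and the secretogranin Scg2 from 52.6 and 47.7 to 103 and 104 CPM (1.18), while Homer1 fell from 119 and 111 to 74.97 and 66.3 CPM (-0.57), in the class where Nr4a1 and Nr4a2 did not pass. Bdnf was among the genes the study picked from these libraries. In CA3, 4 of 16 fell, Bdnf among them, from 63.0 and 64.7 to 35.9 and 33.0 CPM (-0.81), and in inhibitory neurons 2 of 15 fell (0 by DESeq2). Over all nuclei 3 of 16 fell and none rose, while DESeq2 called 5 lower and 3 higher. The median of the list was -0.43 in CA1, 0.36 in DG, -0.25 in CA3 and 0.04 in inhibitory neurons.

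Of 14 factors that drive Nr4a transcription, such as Creb1 and its coactivators, the MEF2 family and Srf, none passed by edgeR or DESeq2 in all nuclei, DG, CA1, CA3 or inhibitory neurons (13 tested there), with 3, 1, 4, 3 and 4 genes at an unadjusted p below 0.05 and medians from -0.21 to -0.02. In CA1, Crem stood at 26.3 and 28.5 CPM in WT and 20.04 and 18.6 in KI (adjusted p = 0.119), and Crebbp, a coactivator of CREB, at 237 and 221 in WT and 136 and 204 in KI (adjusted p = 0.204). The retinoid X receptors Rxra, Rxrb and Rxrg did not pass by either tool in any of these in which they were tested, Rxrg not being tested in DG, with 1 gene at an unadjusted p below 0.05 over all nuclei and 1 in inhibitory neurons.

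Chaperones of the endoplasmic reticulum, 15 genes all tested, fell in 6 cases in CA1, 5 in DG, 3 in CA3, 5 in inhibitory neurons and 3 over all nuclei, and none rose. Of all genes, 2.62% were lower in KI in CA1, 4.9% in DG, 0.794% in CA3, 0.894% in inhibitory neurons and 0.382% over all nuclei. Pdia6, a protein disulfide isomerase, fell in each of the 5 fits, in CA1 from 45.9 and 39.1 to 18.9 and 21.9 CPM. The list's median ran from -0.76 in CA1 to -0.52 in CA3. Of 8 genes of dopamine neurons, a list drawn up around Nr4a2, 2 to 5 had enough counts in each fit, and those that passed by edgeR rose. They were Ddc over all nuclei (5.58 and 4.12 to 20.7 and 23.1 CPM, the enzyme that makes dopamine from its precursor) and in DG, the vesicle transporter Slc18a2 in CA1 (8.62 and 8.47 to 15.8 and 20.5 CPM) and Th, the first enzyme of dopamine synthesis, in inhibitory neurons (0 and 0.459 to 2.78 and 2.64 CPM, adjusted p = 0.0466). DESeq2 called Ddc over all nuclei and Slc18a2 in CA1, and none of the list in DG or in inhibitory neurons. By edgeR 0.889% of all genes passed over all nuclei, 9.7% in DG, 6.92% in CA1 and 2.46% in inhibitory neurons, in either direction. Ddc was among the 10 leading genes of an oligodendrocyte cluster held mostly by KI, and Th was named after its value was seen.

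The genes whose pattern was most like each receptor were sought over 52 sums, 13 classes by 4 libraries, with Pearson's r on log2(CPM + 1) among 12842 genes. For Nr4a1 they were Myo1c (r = 0.71), Rgl2 (0.70), 4930430F08Rik (0.70), Hirip3 (0.69) and Gm11290 (0.68). For Nr4a2 they were Ipo5 (0.75), Zdhhc23 (0.73), Ccl27a (0.71), Jade2 (0.70) and Fam81a (0.68). For Nr4a3 they were Cacna1i (0.71), Mdga1 (0.71), 2900026A02Rik (0.68), Hs3st4 (0.68) and Rin1 (0.67). Nr4a1 and Nr4a2 had r = 0.44 with each other, Nr4a2 and Nr4a3 0.38, and Nr4a1 and Nr4a3 0.19. Sums of a library share its depth, so these values describe and do not test. Classes with few UMIs weigh as much as the others, such as mural cells with 0 UMIs of Nr4a1 in WT and 1 in KI. Their part in these values was not tested.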

How the data were processed

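Nuclei from the hippocampus were profiled with the 10x Genomics 3' kit. The authors deposited filtered matrices of raw UMI counts per gene and nucleus, made with Cell Ranger 7.0.1 (file header) on mm10, with no pooling of libraries, and their normalization and cell names were not used here. Nuclei with at least 500 genes and at most 5% mitochondrial UMIs were kept, and those with a Scrublet score above 0.25 were removed. Clusters came from 2000 variable genes, 30 components, 20 neighbours and Leiden at a resolution of 0.5 (scanpy 1.11.5, leidenalg 0.10.2, Python 3.11.15), with the Nr4a and activity genes left out. A cluster took a class name when enough of its markers were 2-fold raised. Counts were summed per library and class where each library gave 20 nuclei or more, and KI was compared with WT by the quasi-likelihood test of edgeR 4.0.16 in R 4.3.3 (filterByExpr, TMM, Benjamini-Hochberg over all genes of the fit, threshold 0.05). Class differences and class-by-genotype terms had the library as a block. DESeq2 1.42.0 was an alternative. The edgeR script was tested on simulated counts. Shares have exact Clopper-Pearson intervals at 95%.

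The libraries held 12665 to 16055 barcodes and shared 40 to 67 barcodes in pairs, at most 0.529% of the smaller. Replicates of a genotype differed by more than sampling noise, with a chi-square per degree of freedom of 16.5 in WT and 46.3 in KI. The members and gene lists were chosen with earlier results of these data known. Named from each list were up to 4 genes with the smallest p in the class described among those with a mean of at least 10 CPM, while Fos, Egr1, Npas4, Fosl2, Rgs2, Th and, in DG, Ddc fall outside this rule and were named after their values were seen, and for likeness of pattern the 5 genes with the highest r among those at 5 CPM or more. Gene positions are from GENCODE M21, with 32235 of 32285 identifiers matched, and promoter sequences of all 3 genes from RefSeq (GRCm38.p6). Protein sequences were not used here.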

Additional observations from a re-analysis of the deposited data

Results flagged for a closer look

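A set of 6 differences between classes in the effect of the genotype passed the test of the difference itself, each against DG granule neurons on the log2 scale. The WT and KI nuclei of DG lay mostly in different clusters at 2 times the resolution, and these differences were not tested within those clusters. There Nr4a2 stood at 13.4 and 12.6 CPM in WT against 3.73 and 7.54 in KI, and at 29.1 and 41.8 CPM in WT against 10.3 and 18.2 in KI. Nr4a1 lay lower in both KI libraries than in both WT libraries in the cluster led by Mylk3, from few WT UMIs, and on both sides of WT in the other cluster. For Nr4a2 the effect was more negative in CA1 (-1.61, SE 0.31, adjusted p = 0.00511) and in CA3 (-1.07, SE 0.30, adjusted p = 0.0371). For Nr4a1 it was more negative in CA1 (-1.0, SE 0.18, adjusted p = 0.00334), CA3 (-1.09, SE 0.22, adjusted p = 0.00541), inhibitory neurons (-1.06, SE 0.27, adjusted p = 0.0226) and the unnamed cluster 6 (-1.79, SE 0.27, adjusted p = 0.00173), where 1.91% of genes had a more negative effect. When each nucleus was gated by its own markers, Nr4a1 in CA1 (-0.83), CA3 (-0.65) and inhibitory neurons (-0.65) and Nr4a2 in CA3 (-0.65) no longer passed. In the unnamed cluster 13, which had inhibitory markers raised, the difference for Nr4a1 was -0.14 (SE 0.33, adjusted p = 0.905).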

How the results depend on the processing

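The fall of Nr4a3 kept its direction and its call in all 14 alternatives over all nuclei and all 17 in CA1, and that of Nr4a2 in CA1 in all 17. The size moved more: Nr4a2 in CA1 ran from -2.25 to -1.14 over these alternatives. Nr4a3 in inhibitory neurons ran from -3.62 to -2.06 over 16 alternatives, of which 15 passed. Values below are log2 fold changes of KI over WT unless said otherwise, and the cause of each change was not tested. With DESeq2 in place of edgeR, Nr4a1 passed in CA1 (-0.99) and over all nuclei (-0.74), Nr4a2 in CA3 (-1.20) and over all nuclei (-0.79), and Nr4a1 in inhibitory neurons did not (-1.07). Without the filter on low counts Nr4a1 passed in CA1 (-1.01) and CA3 (-1.06) and Nr4a2 in CA3 (-1.21) and inhibitory neurons (-1.06), while Nr4a1 in DG turned to -0.00830. At equal depth Nr4a2 passed in CA3 (-1.35). At 2 times the resolution Nr4a2 passed in CA3 (-1.63) and Nr4a1 in inhibitory neurons did not (-1.09). Library totals turned Nr4a1 in DG to -0.12, where they moved the median of all genes by -0.13, and in DG 1203 of 1815 calls were then lower in KI against 800 of 1584. In CA1 it was 623 of 1242 against 427 of 1129, in CA3 127 of 257 against 122 of 346 and in inhibitory neurons 292 of 473 against 128 of 352.

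The gate of each nucleus by its own markers put 53.0% of CA1 nuclei among astrocytes. With it Nr4a1 passed in CA1 (-0.74) but not in inhibitory neurons (-0.68), turned in DG (-0.00916) and lost the difference of its effect between CA1 and DG (-0.83). Nr4a3 lost its call in CA3 (-1.41) and inhibitory neurons (-2.53), and the level of Nr4a2 differed between CA1 and DG (1.51). With markers scaled first, added after seeing the data, Nr4a1 did not pass in inhibitory neurons (-0.59) and turned in DG (-0.20), and Nr4a2 turned in fibroblasts (-0.27). In nuclei of the same UMI range, also added, Nr4a1 turned in DG (-0.10) and Nr4a3 there no longer passed (-1.23).

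With 1 library left out at a time, Nr4a1 ranged over -1.61 to -0.57 in CA1, -1.76 to -0.61 in CA3, -0.49 to 0.39 in DG, -1.18 to -0.42 over all nuclei, -1.32 to -0.86 in inhibitory neurons and -0.0411 to 1.20 in microglia. Nr4a2 ranged over -1.76 to -0.82 in CA3, -0.37 to 0.16 in DG, -1.37 to -0.61 in inhibitory neurons, -0.63 to 0.0177 in subicular or retrohippocampal neurons, -1.87 to 0.0504 in astrocytes, -0.50 to 0.51 in fibroblasts and -0.96 to 0.40 in cluster 6, and its level in CA1 over DG over 0.55 to 1.34. Nr4a3 ranged over -1.10 to -0.89 in CA3 and -1.81 to -1.16 in DG.

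The replicate numbers pair nothing known: the deviations of same-numbered libraries correlated at 0.0265 over all nuclei and -0.0325 in CA1. With the replicate number as a block Nr4a1 passed in CA1 (-1.06), CA3 (-1.11) and over all nuclei (-0.78) and turned in DG (-0.0183), and Nr4a2 passed in CA3 (-1.22) and over all nuclei (-0.77). Under that block 1955 genes passed over all nuclei, against 193 in the main fit, 1831 with DESeq2, 708 without the filter, 373 with the same mix of classes and 115 to 7196 with 1 library left out. Leaving out libraries was not run for the difference of effects between classes. With 2 libraries a group, a p that missed the threshold does not show that levels were alike.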

Other observations

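At 2 times the resolution the cluster with mossy cell and CA3 markers had Nr4a3 at 36.0 and 36.0 CPM in KI against 56.7 and 80.1 CPM in WT, which was not tested. At the main resolution, cluster 18, which had 224 WT nuclei in WT replicate 2 and 1 in WT replicate 1, was too uneven to test, and Nr4a2 stood there at 103 CPM in WT replicate 2 and at 87.3 and 89.8 CPM in KI. In cluster 25, with the markers of endothelial and mural cells, no library had a UMI of Nr4a1 in its 48, 21, 28 and 35 nuclei, which, taken as 3 counts, allows shares of nuclei with a UMI of up to 6.25%, 14.3%, 10.7% and 8.57%.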
